A study of Mus musculus with 8 samples.

Results

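The genes that set, copy and remove DNA methylation were examined in a list of open chromatin sites of mouse brown adipose tissue (BAT). They were Dnmt1 and Uhrf1, which maintain methylation, Dnmt3a and Dnmt3b, which place it anew, and Tet1, Tet2 and Tet3, which oxidise it. A site counted for a gene when it lay inside the gene or at most 50 kb from a transcription start site (TSS) of one of its curated RefSeq mRNAs. By this rule 53 of the 32173 sites (0.165%) belonged to these 7 of 21000 genes.

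The sites came from ATAC-seq, in which the Tn5 transposase cuts DNA that nucleosomes do not cover, of nuclei from the BAT of 4 mice, 2 WT and 2 Dot1L-BKO. The mice were 12 weeks old and were kept at 4°C for 4 hr before the tissue was taken. Per the paper, its mice ate chow or a high-fat diet and were male unless otherwise stated. Dot1L-BKO mice carry floxed Dot1l alleles and Cre under Ucp1 control, so that Dot1l, the methyltransferase of lysine 79 of histone H3, is deleted in Ucp1+ cells while the other cells of the fat pad keep it. WT mice were Dot1l f/f littermates. The nuclei of each mouse were processed separately, but the authors deposited a single list in which the WT libraries are named against the Dot1L-BKO libraries, with 1 position (the summit of a MACS2 peak) and 1 score (the −log10 of its q-value) per site. There was no value per library, so depth and replicate error were unknown and the genotypes could not be compared. How MACS2 used the Dot1L-BKO libraries is not known here. If they were its control, the list holds sites with more signal in WT and the score measures that excess, and if they were not, it holds open sites of the pooled libraries. These readings cannot be told apart from the list and bear on every summit, score and marker count below, so no genotype direction is read from any of them. A gene without a summit was a gene without an entry in this list, which does not show that its chromatin was closed. Since each library held the nuclei of a whole tissue, a few open nuclei and a weak opening in many nuclei cannot be told apart.

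The labelled tissue was checked by marker promoters, counting a promoter as marked when a summit lay within 1 kb of a TSS. Over all genes, 45.2% had such a summit. All 8 of the 8 adipocyte markers had one, with scores from 6.02 to 61.5, and they comprised both brown fat genes (Ucp1, Cidea, Dio2, Prdm16 and Ppargc1a) and genes of fat cells in general (Adipoq, Plin1 and Pparg). Of the other cell types, 1 endothelial marker of 4 (Cdh5, score 2.59), 1 macrophage marker of 4 (Cd68, 2.15), 1 fat progenitor marker of 4 (Pdgfra, 4.16) and 1 hepatocyte marker of 4 (Apoa1, 3.32) had a summit, and 0 of 4 skeletal muscle and 0 of 4 neuronal markers did.

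In mammals DNA methylation is found mostly on the cytosine of CpG dinucleotides. After replication Uhrf1 binds CpGs that carry the mark only on the parental strand and recruits Dnmt1 to copy it, whereas Dnmt3a and Dnmt3b methylate CpGs on both strands without such a template. The Tet enzymes oxidise methylcytosine to hydroxymethylcytosine and beyond, which leads to loss of the mark through replication or base excision repair. Promoters that are rich in CpGs, called CpG islands, are as a rule free of methylation.

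The promoter sequences of these genes are shown because the genes differ in how CpG-rich they are at their own start sites, and because the members with and without a summit can be set side by side. Each runs from 250 bases upstream of a TSS to 30 bases downstream of it, in the direction of transcription, with every CpG in capitals (RefSeq, GRCm38.p6, the same assembly as mm10). The 7 genes have 13 curated TSSs, of which 12 had a promoter sequence and the upstream TSS of Tet3 did not.
Dnmt1, middle TSS, chr9:20952950-20953229, minus strand: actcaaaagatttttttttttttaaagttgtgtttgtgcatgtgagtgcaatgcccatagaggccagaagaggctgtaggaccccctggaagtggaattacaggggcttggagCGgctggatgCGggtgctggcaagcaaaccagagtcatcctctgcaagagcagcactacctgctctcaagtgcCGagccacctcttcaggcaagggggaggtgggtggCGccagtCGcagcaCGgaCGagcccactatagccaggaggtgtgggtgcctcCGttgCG
Uhrf1, upstream TSS, chr17:56303087-56303366, plus strand: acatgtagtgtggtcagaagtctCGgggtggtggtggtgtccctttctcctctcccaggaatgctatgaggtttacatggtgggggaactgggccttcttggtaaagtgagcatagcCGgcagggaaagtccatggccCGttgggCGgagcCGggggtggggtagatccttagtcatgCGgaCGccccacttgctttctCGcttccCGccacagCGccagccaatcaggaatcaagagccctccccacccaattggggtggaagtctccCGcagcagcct
Dnmt3a, first TSS, chr12:3806730-3807009, plus strand: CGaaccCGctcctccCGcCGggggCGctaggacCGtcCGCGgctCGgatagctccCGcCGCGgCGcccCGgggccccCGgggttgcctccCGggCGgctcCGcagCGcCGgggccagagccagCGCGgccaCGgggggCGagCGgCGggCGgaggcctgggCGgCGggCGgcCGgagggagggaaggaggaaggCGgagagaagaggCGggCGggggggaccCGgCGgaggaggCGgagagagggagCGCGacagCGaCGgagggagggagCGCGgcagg
Dnmt3a, internal TSS, chr12:3891494-3891773, plus strand: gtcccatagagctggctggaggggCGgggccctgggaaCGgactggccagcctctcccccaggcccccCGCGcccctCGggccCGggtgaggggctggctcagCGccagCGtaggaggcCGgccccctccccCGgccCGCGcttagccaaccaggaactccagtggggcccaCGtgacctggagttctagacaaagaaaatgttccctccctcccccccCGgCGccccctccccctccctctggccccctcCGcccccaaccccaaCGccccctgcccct
Dnmt3b, chr2:153649199-153649478, plus strand: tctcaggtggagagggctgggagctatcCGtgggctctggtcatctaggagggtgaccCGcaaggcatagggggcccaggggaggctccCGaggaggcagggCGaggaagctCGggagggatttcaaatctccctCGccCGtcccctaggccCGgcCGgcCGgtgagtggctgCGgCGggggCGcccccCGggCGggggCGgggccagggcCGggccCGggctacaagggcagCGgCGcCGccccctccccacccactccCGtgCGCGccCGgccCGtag
Tet1, chr10:62887295-62887574, minus strand: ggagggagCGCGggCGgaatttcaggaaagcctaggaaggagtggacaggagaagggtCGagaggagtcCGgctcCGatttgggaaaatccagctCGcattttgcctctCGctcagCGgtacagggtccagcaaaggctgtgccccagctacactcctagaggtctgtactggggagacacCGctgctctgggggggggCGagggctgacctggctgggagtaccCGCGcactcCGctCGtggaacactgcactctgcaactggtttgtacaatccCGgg
Tet2, chr3:133544361-133544640, minus strand: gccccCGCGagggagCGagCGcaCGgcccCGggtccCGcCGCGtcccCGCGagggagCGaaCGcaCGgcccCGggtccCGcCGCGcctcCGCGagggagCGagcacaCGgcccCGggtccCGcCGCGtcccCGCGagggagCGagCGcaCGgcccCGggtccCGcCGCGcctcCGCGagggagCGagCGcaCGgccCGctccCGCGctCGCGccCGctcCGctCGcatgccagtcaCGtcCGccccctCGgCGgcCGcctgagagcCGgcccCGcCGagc
Tet3, downstream TSS, chr6:83441649-83441928, minus strand: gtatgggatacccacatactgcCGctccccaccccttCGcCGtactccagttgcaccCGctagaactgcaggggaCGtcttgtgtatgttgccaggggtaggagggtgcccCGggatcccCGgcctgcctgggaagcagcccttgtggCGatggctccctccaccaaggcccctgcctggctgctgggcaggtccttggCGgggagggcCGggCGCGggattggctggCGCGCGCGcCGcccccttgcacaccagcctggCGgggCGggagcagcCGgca
The printed Tet2 promoter held 56 CpGs, more than the 43 of the first Dnmt3a TSS, the 26 of Dnmt3b, the 20 of Tet3, the 17 of the internal Dnmt3a TSS, the 16 of Tet1, the 11 of the upstream Uhrf1 TSS and the 9 of the middle Dnmt1 TSS. Of the promoters not printed, the second Dnmt3a TSS held 43 over the same 280 bases and the downstream Uhrf1 TSS 32. The most downstream Dnmt1 TSS held 30 and the most upstream Dnmt1 TSS 2. Tet2, the gene without any summit in its window, thus had the most CpGs over this short stretch among the 12 TSSs with a promoter sequence. The upstream TSS of Tet3 was not among them. Within 500 bp of the TSS it had 105, fewer than the 155 and 165 at the first and second TSS of Dnmt3a and the 127 at the upstream TSS of Tet3.

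A promoter summit was found at 5 of the 7 genes, namely Dnmt1, Uhrf1, Dnmt3a, Dnmt3b and Tet3, and at 45.2% of all genes. Tet1 and Tet2 had none. None of the 5 promoter scores reached 10 (0 of 7 genes, against 23.5% of all genes). Any summit in the window was found for 6 of 7 genes (72.6% of all genes), the exception being Tet2. A summit in the gene body was found for 5 of 7 genes (43.2% of all genes), the exceptions being Tet1 and Tet2. With 7 genes, these shares are counts of what the list holds and were not tested against the share over all genes.

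**Figure D1:**
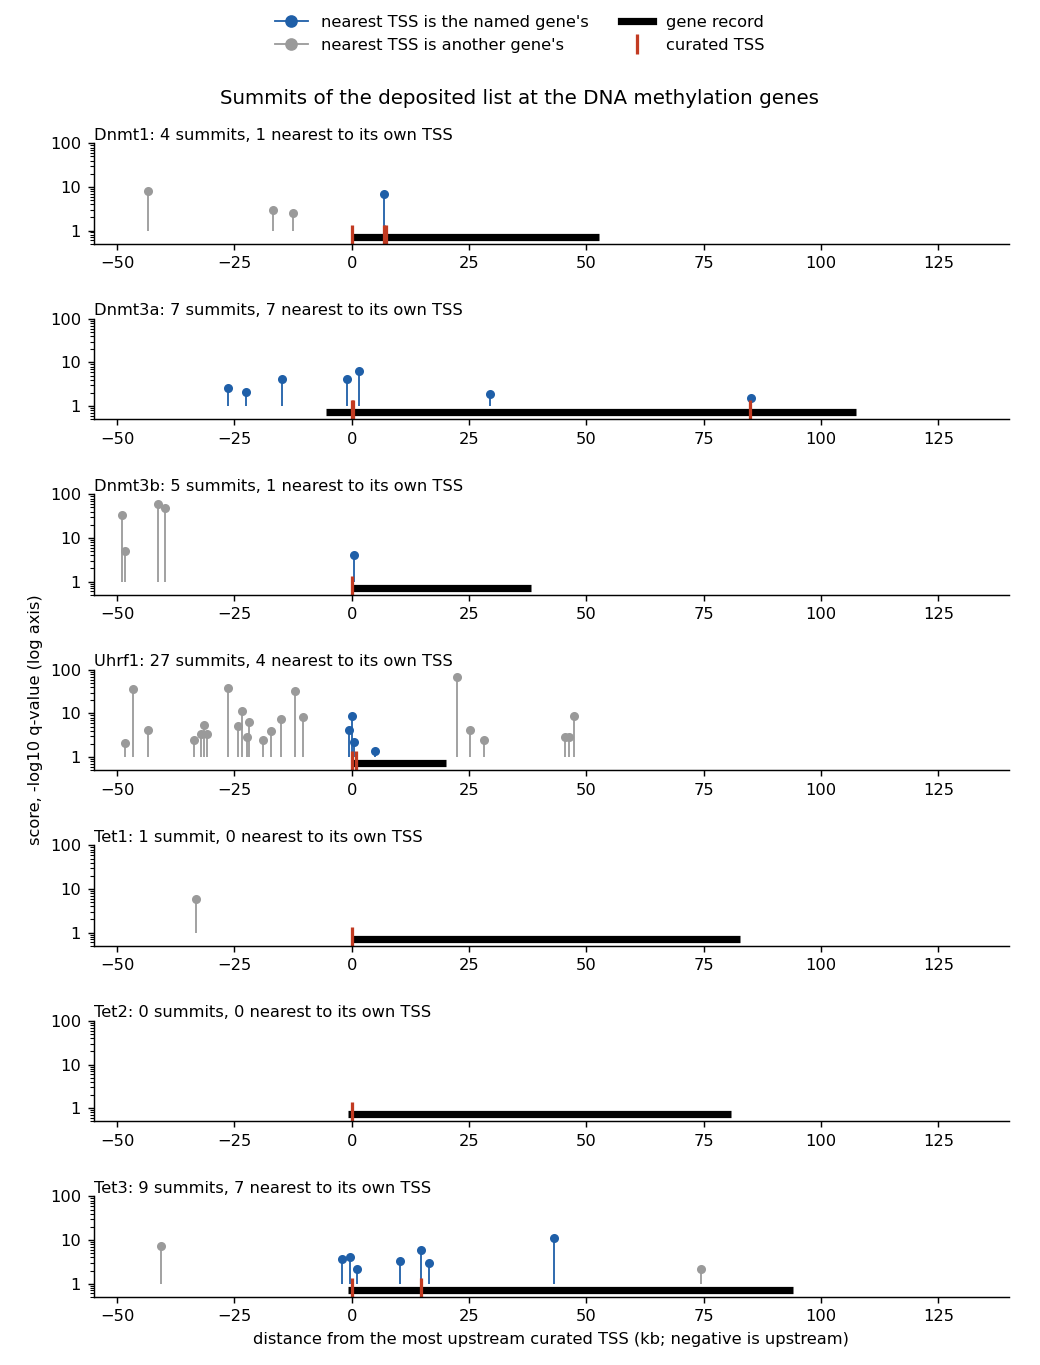
The 53 summits at the 7 genes, by distance from the most upstream curated TSS in kb (negative is upstream) and by score (−log10 q-value, log axis). Blue points are nearest to a TSS of the named gene and grey points to that of another gene, black bars are gene records and red ticks are curated TSSs; Uhrf1 has 27 summits, 23 of them grey, and Tet2 has 0.

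Of the 53 summits, 20 had a TSS of one of the 7 genes as their nearest TSS and 33 lay nearer to another gene. The 20 had a median score of 3.87 (range 1.41 to 10.9) and the 33 a median of 5.07 (range 2.15 to 68.5). Over all 32173 summits the median was 5.001. A score of 10 or more was reached by 9 of the 53 summits (17.0%), against 23.5% of all summits in the list. Of these 9, 8 lay nearer to another gene, so that the strong sites of these windows were mostly not at the methylation genes themselves. By position, 23 of the 53 (43.4%) lay in introns, 17 (32.1%) outside curated transcripts, 6 (11.3%) in coding exons, 4 (7.55%) in 3′ UTRs and 3 (5.66%) in 5′ UTRs. Each of the 3 in a 5′ UTR belonged to Dnmt1 or Tet3, and none of the 6 in coding exons lay in one of the 7 genes.

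Dnmt1, the maintenance methyltransferase, lies at chr9:20907206-20959888 on the minus strand. Its gene body held a single summit, at position 20952919, with a score of 7.05 (rank 10792 of 32173). The summit lay 60 bp downstream of the middle of 3 TSSs, in the 5′ UTR, and 296 bp upstream of the third. The middle TSS leads to proteins of 1619 to 1627 residues and the third to one of 1502 residues. The most upstream TSS, at 20959888, which leads to a protein of 1501 residues, had no summit within 1 kb, the nearest being the same site at 6969 bp. An upstream Dnmt1 promoter is known to be used in oocytes, in which a shorter protein is made. This TSS had 4 CpGs within 500 bp and a CpG observed/expected ratio of 0.0588, against 53 CpGs and 0.593 at the middle TSS and 66 CpGs and 0.620 at the third. The CpG observed/expected ratio is the number of CpGs divided by the number that the C and G content would give if bases were placed at random. The summit thus stood at the CpG-rich pair of TSSs and not at the CpG-poor one.

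The other 3 summits of the Dnmt1 window were upstream of it and nearer to other genes. The strongest had a score of 7.91 and lay in a coding exon of Mrpl4, a mitochondrial ribosomal protein gene, 521 bp downstream of its TSS. The remaining sites, with scores of 2.92 and 2.53, lay in an intron of S1pr2, a sphingosine phosphate receptor gene.

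Uhrf1, which reads hemimethylated CpGs, lies at chr17:56303337-56323486 on the plus strand. Its strongest summit, at 56303335, lay 2 bp upstream of the upstream TSS and scored 8.65 (rank 8560), the highest promoter score of the 7 genes. A second site lay 580 bp upstream of this TSS with a score of 4.12, and another lay 389 bp upstream of the downstream TSS, in an intron, with a score of 2.27. The last of its own summits, in an intron 3999 bp downstream of the downstream TSS, had the lowest score of all 53, 1.41. The strongest site stood at the TSS with fewer CpGs: the upstream TSS had 46 CpGs within 500 bp (ratio 0.550) and the downstream TSS, 976 bp further on, had 78 (ratio 0.839). This site also lay within 1 kb of the downstream TSS. Both TSSs lead to proteins of 774 to 782 residues.

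The Uhrf1 window held 27 of the 53 summits, and 98.7% of all genes had fewer. Only 4 of these 27 were nearest to Uhrf1. The window took in the TSSs of 5 other genes, and of the 1150 genes with that many other genes in their window 2.70% had 27 summits or more. Ticam1, an adaptor of innate immune receptors, was nearest to 9 of the 27, with a promoter score of 37.6 (rank 1013). Kdm4b, a histone demethylase, was nearest to 6, and its promoter score of 68.5, at position 56325740, was the highest of all 53 summits. Plin3, which coats lipid droplets, was nearest to 5, with a promoter score of 33.3 (rank 1288). The Plin3 gene body held 7 summits, and the Plin3 and Uhrf1 TSSs were 12826 bp apart. Fem1a, a ubiquitin ligase adaptor, was nearest to 3, with a promoter score of 36.7 (rank 1089). Each of these 4 neighbours thus ranked above the Uhrf1 promoter in the list.

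Dnmt3a, a de novo methyltransferase, lies at chr12:3801559-3914443 on the plus strand, and all 7 summits of its window had a Dnmt3a TSS as the nearest. No TSS of another gene lay in the window. Its strongest summit, at 3808521 with a score of 6.45, was in the first part of the gene, in an intron 1361 bp downstream of the second TSS, and so outside the 1-kb promoter window. The promoter site, at 3806055, lay 925 bp upstream of the first TSS with a score of 4.16. The first and second TSS, 180 bp apart, lead to a protein of 908 residues and have the highest CpG ratio of the 7 genes within 500 bp of a TSS, up to 0.987, above that of 97.1% of genes. The promoter summit itself lay outside that dense stretch, with 2 CpGs in the 100 bp on each side of it.

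An internal Dnmt3a TSS, 84764 bp downstream of the first, starts the short form of 689 residues (Dnmt3a2), which is known from embryonic stem cells and germ cells. A summit lay 233 bp downstream of it, at 3891977, with a score of 1.49 (rank 31783 of 32173). This was the weakest of the 9 promoter summits of the 7 genes, and a lncRNA gene, Gm31623, overlaps it. Of the other summits, 3 lay between 14939 and 26301 bp upstream of the first TSS, with scores of 4.16, 2.15 and 2.62, the latter pair within the neighbouring gene Dtnb. The last, 29343 bp downstream of the second TSS, scored 1.90. The long-form promoter region and the start of the short form therefore both had a site in the list, with scores of 4.16 and 1.49.

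Dnmt3b, the other de novo methyltransferase, lies at chr2:153649411-153687730 on the plus strand. Its own single summit lay in an intron 565 bp downstream of its TSS, at 153650014, with a score of 4.16 (rank 17875), although the TSS was CpG-rich (ratio 0.832, 102 CpGs within 500 bp). The other 4 summits of the window formed a group that spanned 9061 bp and lay 39855 to 48916 bp upstream of Dnmt3b. Their scores were 58.8 at 153608182, 49.1 at 153609594, 33.3 at 153600533 and 5.07 at 153601163. Among all 21798 summits farther than 1 kb from a TSS, these first 3 scored above 99.6%, 99.3% and 98.3%. No curated transcript covers the group. The nearest TSS was that of Commd7, a COMM domain gene, at 23187 to 32248 bp, and Commd7 had no promoter summit. The 4 sites had 1 to 6 CpGs in the 100 bp on each side. Distance alone does not say which gene, if any, these sites act on.

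Tet3, a methylcytosine dioxygenase, lies at chr6:83362373-83457208 on the minus strand and had 7 summits in its gene body, more than 97.8% of genes. Of the 1201 genes with a gene record of 80 to 120 kb, 6.08% had 7 or more and the median was 1. Per 100 kb of gene body this came to 7.38 summits, against 9.93 for Uhrf1, 3.54 for Dnmt3a, 2.61 for Dnmt3b and 1.90 for Dnmt1. Over all genes with at least 1 summit in the body the median was 6.21, and over those with a gene record of 80 to 120 kb it was 1.70. Over the span of curated mRNAs alone, Tet3 had 6.38 per 100 kb and Dnmt3a 2.79. At each, a summit upstream of the first TSS lay in the gene record but outside that span. Tet3 has 2 TSSs, and both had a promoter summit. The upstream TSS, which leads to the long form of 1803 residues that carries a CXXC domain for binding CpGs, had a summit 371 bp upstream with a score of 4.16. The downstream TSS, 14714 bp further on, which leads to the form of 1668 residues, had a summit 114 bp downstream, in the 5′ UTR, with a score of 6.02 (rank 12417). The higher score was at the TSS with fewer CpGs within 500 bp, 56 (ratio 0.546) against 127 (ratio 0.820). At Uhrf1 this held only when each summit was given to its nearest TSS, since its strongest summit lay within 1 kb of both TSSs. At Dnmt3a, of the first and internal TSS, the higher score was at the one with more CpGs, 4.16 (155 CpGs) against 1.49 (49 CpGs). The second Dnmt3a TSS, with the most CpGs (165), had no summit within 1 kb.

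The strongest summit of Tet3, and the only one of the 20 own summits to reach a score of 10, lay in an intron at 83413205, 28473 bp downstream of the downstream TSS. It scored 10.9 (rank 6582), above 87.0% of the summits farther than 1 kb from a TSS. Another 4 sites, with weaker scores from 2.15 to 3.62, lay within 5 kb of a Tet3 TSS but outside the promoter windows. A site in the far part of the gene body, with a score of 2.15, and a site upstream in an intron of Dguok, with a score of 7.22, lay nearer to the TSSs of other genes. The 50-kb limit bore on this gene. The first site beyond its upstream edge, at 50502 bp, scored 66.4, whereas the last inside, at 40654 bp, scored 7.22. That first site outside lay within 1 kb of the TSS of Dguok, which fell just beyond the window, and so at the promoter of another gene. At Dnmt3b the last upstream site inside lay at 48916 bp (score 33.3) and the first outside at 62753 bp (2.92). At the other edges the first site outside scored from 1.55 to 35.0.

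The strongest site upstream of Dnmt3b and the intronic site of Tet3 are shown because they were the strongest summits far from any TSS in the windows of these genes. Each is the summit with 50 bp on each side, read on the plus strand of GRCm38.p6, with CpGs in capitals.
Upstream of Dnmt3b, chr2:153608132-153608232, plus strand: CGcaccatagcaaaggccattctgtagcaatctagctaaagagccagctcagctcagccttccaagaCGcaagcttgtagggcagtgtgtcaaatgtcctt
Tet3 intron, chr6:83413155-83413255, plus strand: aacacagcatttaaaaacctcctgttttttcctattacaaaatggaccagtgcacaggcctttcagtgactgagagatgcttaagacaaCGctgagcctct
They held 2 CpGs and 1 CpG.

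Tet1 lies at chr10:62804570-62887469 on the minus strand, with a single TSS, and had no summit in its gene body of 82900 bp, as had 42.1% of the 1201 genes with a gene record of 80 to 120 kb, the class of Tet2 (81460 bp) too. The only summit of its window, with a score of 6.02, lay 33208 bp upstream, just before the TSS of Slc25a16, a mitochondrial carrier gene. The Tet1 TSS had 59 CpGs within 500 bp and a ratio of 0.710. Of the 5784 genes with ratios from 0.6 to 0.8, 68.3% had a promoter summit and 17.8% had their nearest summit at least as far away as Tet1.

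Tet2, the Tet gene often mutated in blood cell cancers, lies at chr3:133463677-133545136 on the minus strand, with a single TSS, and had 0 summits. The nearest lay 190913 bp downstream of the TSS, at 133353477, with a score of 5.68, and on the upstream side the first lay at 795077 bp. The TSS had 105 CpGs within 500 bp and a ratio of 0.920, above that of 92.1% of genes. Among the 4538 genes with ratios from 0.8 to 1.0, 77.1% had a promoter summit, and 132 (2.91%) had their nearest summit at least as far away as Tet2. Of the 5776 genes with no TSS of another gene in the window, as at Tet2, Dnmt3a and Tet3, 42.1% had 0 summits. Dnmt3a had 7 in such a window and Tet3 had 9, which 5.42% and 3.50% of those genes reached. Tet3 fell in this class narrowly, since the Dguok TSS lay just beyond 50 kb.

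**Figure D2:**
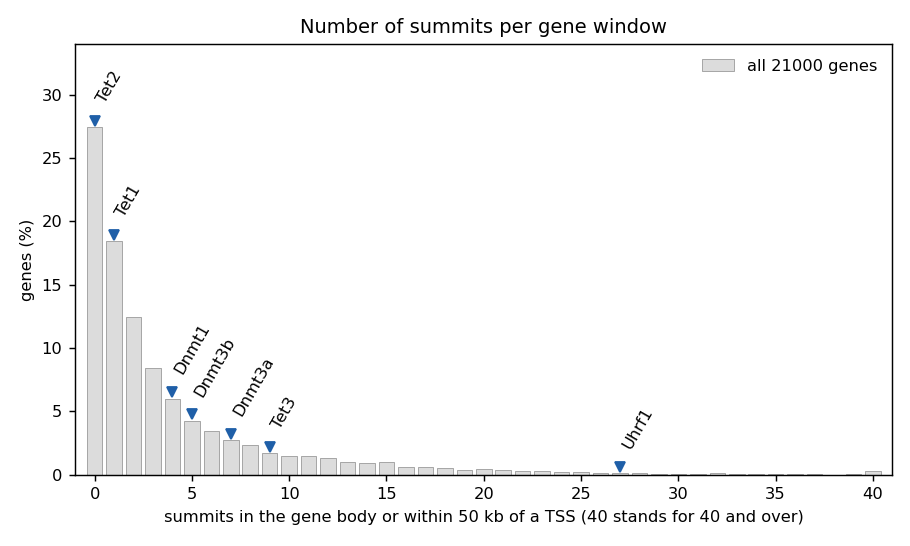
Share of all 21000 genes (bars, %) by the number of summits in the body of the gene or up to 50 kb from its TSSs. Triangles mark the 7 genes, which range from 0 at Tet2 to 27 at Uhrf1.

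**Figure D3:**
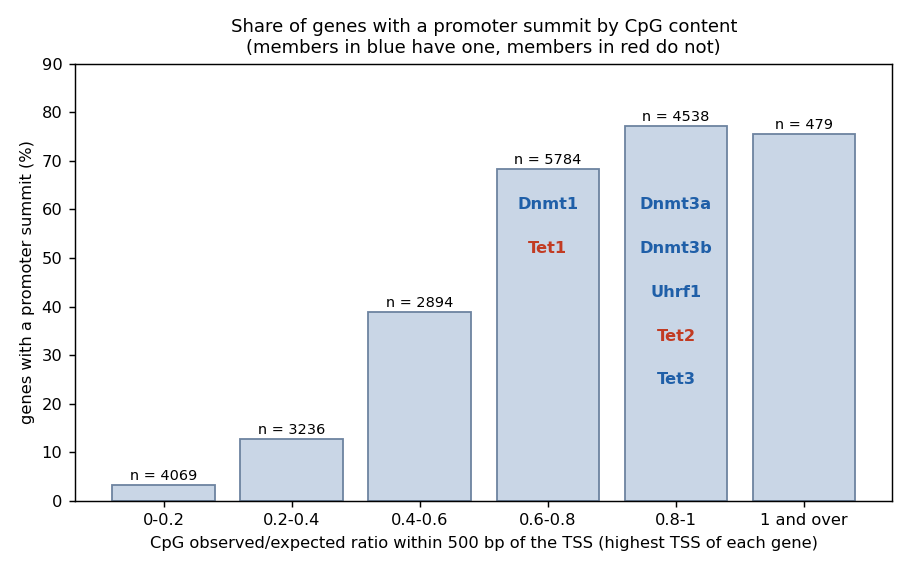
Share of genes with a promoter summit (bars, %) by the CpG observed/expected ratio within 500 bp of the TSS, taking the highest ratio over the TSSs of each gene. The share rises from 3.32% below 0.2 to 77.1% from 0.8 to 1.0; Tet1 and Tet2 (red) have no promoter summit although they lie in bins in which 68.3% and 77.1% of genes have one.

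All 7 genes had a highest TSS ratio of 0.6 or more. Dnmt1 and Tet1 fell between 0.6 and 0.8, above 50.6% and 62.0% of genes, and the other 5 genes fell between 0.8 and 1.0. Of genes with ratios under 0.2, 3.32% had a promoter summit. Beside genes of like CpG content, 5 of 7 is near the shares of 68.3% and 77.1%, whereas the 45.2% over all genes includes many CpG-poor promoters.

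The level of the promoter scores was modest. The 5 genes with a promoter summit had highest promoter scores of 8.65 for Uhrf1, 7.05 for Dnmt1, 6.02 for Tet3 and 4.16 each for Dnmt3a and Dnmt3b, which gives a median of 6.02. Over the 9485 genes with a promoter summit the median was 10.7 (quartiles 5.55 and 20.9). Uhrf1 scored above 40.01% of these genes, Dnmt1 above 32.9%, Tet3 above 25.9%, and Dnmt3a and Dnmt3b above 12.5%. In the CpG bin of Uhrf1, Tet3, Dnmt3a and Dnmt3b the median was 12.8, and in that of Dnmt1 it was 10.9, so all 5 lay below the median of genes of like CpG content. The order among them is only partly resolved, as scores come in steps. The value 4.16 was shared by 1942 summits of the list, 6 of the 53 among them, and the whole list had 2606 distinct scores.

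**Figure D4:**
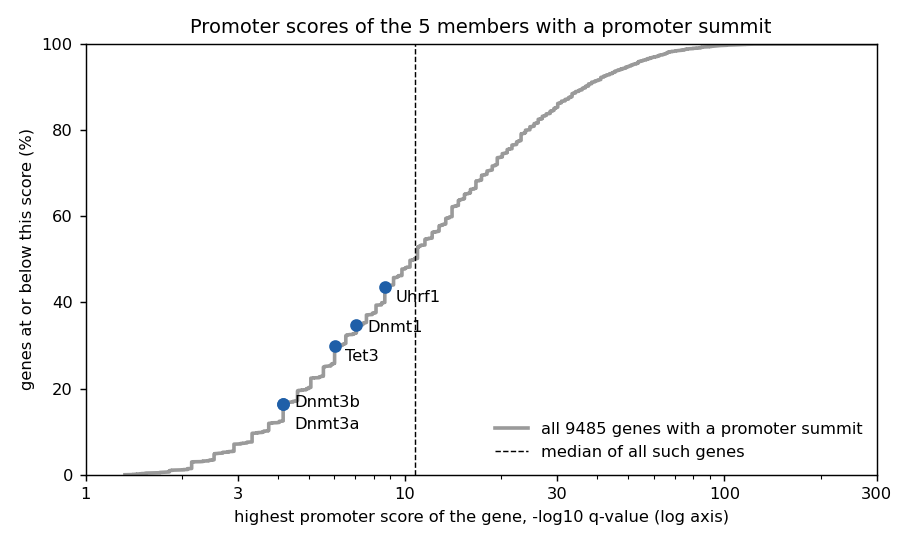
Cumulative share of the 9485 genes with a promoter summit (%, line) by their highest promoter score (−log10 q-value, log axis). The 5 methylation genes with a promoter summit (points) lie between 4.16 and 8.65, all to the left of the median of 10.7 (dashed line).

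The sequence around the sites differed between promoter and distal positions. In the 100 bp on each side of the 9 promoter summits of the 7 genes, the median GC content was 60.2% and the median CpG ratio was 0.698 (range 0.114 to 0.893), with a median of 12 CpGs. Around the 11 own summits farther away, the median GC content was about as high, 58.2%. Their median CpG ratio was 0.150 (range 0 to 0.883), with a median of 2 CpGs, so the medians differed while the ranges overlapped. Over all summits of the list within 1 kb of a TSS the medians were 62.2%, 0.748 and 14 CpGs, and over those farther away 54.2%, 0.235 and 3 CpGs. None of the 53 summits lay in sequence that was more than 50% repeat-masked, as did 0.549% of all summits within 1 kb of a TSS and 14.5% of those farther away.

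A set of 12 short motifs was searched on both strands in the 12 promoter sequences of 300 bases (250 upstream, 50 downstream). A match is a run of letters and does not show that a factor binds. The SP/KLF letters GGGCGG were in 10 of 12, with at least 1 for each of the 7 genes, against 35.7% of all 32851 promoters, which were not matched on CpG content. In the 100 bp on each side of the 9 promoter summits of these genes, the same letters were in 3 (33.3%), against 45.0% of all summits within 1 kb of a TSS. The E2F letters TTTNNCGC, of factors that act in the cell cycle, were in 3, those of Dnmt1 (its most downstream TSS) and Uhrf1 (both TSSs), the maintenance pair, against 5.17% of all promoters. The NRF1 letters GCATGCGC were in 2, both of Dnmt1 (2.71% of all promoters), and the NF-Y letters CCAAT were in 5, of Dnmt1, Uhrf1 and Tet3 (37.4%). In the 100 bp on each side of the Dnmt1 promoter summit, the SP/KLF, E2F, NRF1 and NF-Y letters occurred together. The CTCF letters CCNCNAGNG were in the promoters of Tet1, Tet2 and Tet3, 1 each (18.3%), and the EBF letters TCCCNNGGG in those of Dnmt3b and Uhrf1 (6.56%). The letters for ETS (CCGGAAG), YY1 (AAGATGG), CREB (TGACGTCA), C/EBP (TTGCNNAA), AP-1 (TGANTCA) and TATA (TATANA) were in 0 of 12, against 8.86%, 6.34%, 1.79%, 10.8%, 7.81% and 24.7% of all promoters. Some promoters overlap, as at the first and second TSS of Dnmt3a, and their matches are then shared.

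Other genes of the methylation pathway were taken from a list of 41, of which 40 had a curated mRNA. Of these, 28 (70.0%) had a promoter summit, against 45.2% of all genes and 68.3% to 77.1% of genes with CpG ratios from 0.6 to 1.0, and 18 (45.0%) scored 10 or more, against 23.5% of all genes of any CpG content. The median score of the 28 was 13.4, against 10.7 over all genes with a promoter summit, 10.9 over those with CpG ratios from 0.6 to 0.8 and 12.8 over those with ratios from 0.8 to 1.0. These lists were not matched to other genes on CpG content. The highest were Mbd3, a subunit of the NuRD complex, at 62.5, Neil1, a DNA glycosylase, at 36.7, and Gadd45a, a stress-response gene linked to demethylation, at 28.5. Readers of CpGs and their methylation had a promoter summit in 11 of 13 cases, the exceptions being Zbtb33 and Zfp57. Demethylation and repair genes had one in 12 of 17, the exceptions including Smug1, Parp1, Ogt and Cxxc4. Writers and their co-factors had one in 5 of 10, the exceptions being Dnmt3l, Hells, Cdca7, Cdca7l and Dppa3. Dnmt3l and Dppa3 are known from germ cells and early embryos. Uhrf2 and Tdg were singled out after their values were seen. Uhrf2, the paralog of Uhrf1, had a promoter score of 14.0, and Tdg, the glycosylase that removes Tet products, had one of 14.7, both above the 5 scores of the Dnmt, Tet and Uhrf1 genes.

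Because Dnmt1 and Uhrf1 act at replication forks, replication and proliferation genes were listed beside them. Of 15 genes, 11 (73.3%) had a promoter summit, again against 45.2% of all genes and 68.3% to 77.1% of those with CpG ratios from 0.6 to 1.0. Their median score was 12.2, above the 10.7 of all genes with a promoter summit and between the 10.9 and 12.8 of the same CpG classes. Gins2 (86.2), Cdt1 (37.6) and Mcm4 (37.0), which load, form or activate the replicative helicase, were the highest. Mki67, Top2a, Cdc6 and Tk1 had none. The Uhrf1 and Dnmt1 promoter scores of 8.65 and 7.05 were below the median of this list.

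**Figure D5:**
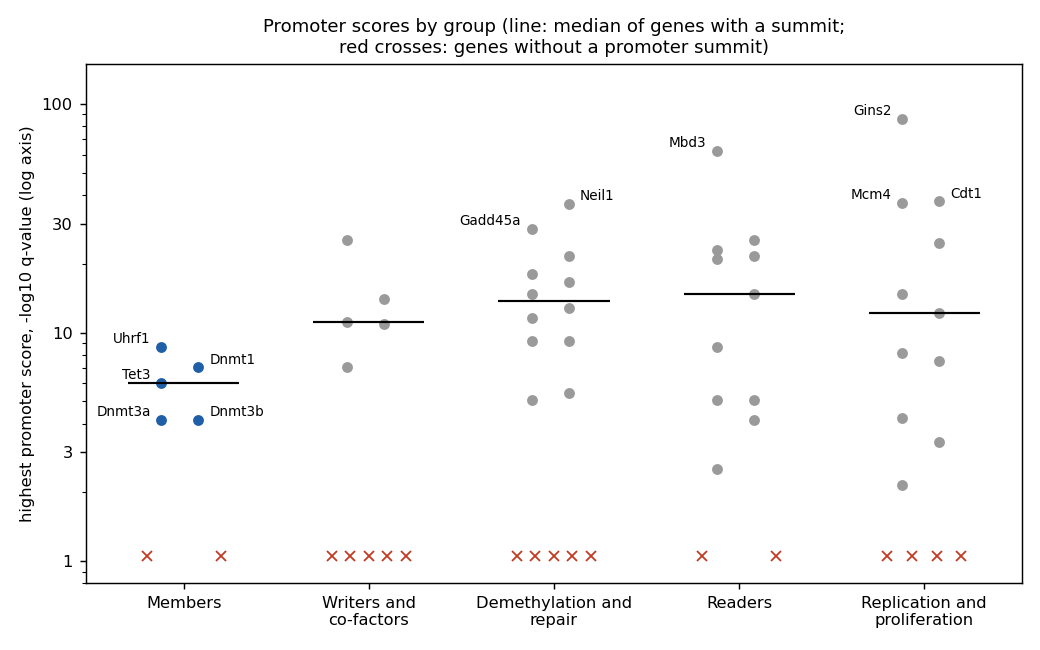
Highest promoter score of each gene (−log10 q-value, log axis) for the 7 Dnmt, Tet and Uhrf1 genes (blue), 3 groups of other methylation genes and the replication and proliferation genes (grey). Lines are medians over genes with a promoter summit and red crosses are genes without one; the 5 blue points lie from 4.16 to 8.65 and the other lists reach 62.5 and 86.2.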

How the data were processed

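ATAC-seq libraries were made from BAT nuclei, 2 from WT and 2 from Dot1L-BKO mice. Per the submitters' processing notes, BWA, MACS2 2.1.1, cutadapt 1.2.1, bcl2fastq 2.2 and CASAVA were among the tools used, and the paper's methods give mm10 and peak limits of 0.05 (q-value) and 2.0 (fold enrichment). The authors deposited 1 summit list with a score, the −log10 q-value of MACS2. Whether MACS2 took the Dot1L-BKO libraries as control, whether reads were shifted for the transposase and how mitochondrial and multi-mapped reads were treated is not given in the sources used here. The paper's methods also describe peaks of single samples joined into 1 set of regions, which was quantified and compared between groups, and whether the deposited list is that set is not given. RNA-seq libraries were not analysed here.

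Summits were placed on the RefSeq annotation of GRCm38.p6 (21 chromosomes, curated mRNAs, 26032 pairs of gene and TSS) with Python 3.11.15, numpy 2.4.6, pandas 2.3.3, pysam 0.24.0 and matplotlib 3.10.9. All 7 symbols matched. Placement was tested on simulated data, and 300 of 300 summits were given the right place. These summits were set at isolated genes with a single TSS, so placement among close genes or several TSSs was not tested. Percentiles are descriptions, and no test was fitted.

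The genes and lists were chosen with earlier results of these data known. Named were the 7 genes, the 3 highest promoter scores and all genes without a promoter summit in each list, and neighbours that were nearest to a window's strongest summit or to 3 or more of its summits. S1pr2, Dtnb, Gm31623, Dguok, Uhrf2, Tdg and the cell type markers named were added after their values were seen. A listed gene is not reported here by name. Alternatives changed the score minimum, merged summits within 500 bp, added predicted mRNAs, or changed the windows.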

Additional observations from a re-analysis of the deposited data

How the results depend on the processing

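The score minimum and the window moved the counts most, by construction, since each changes how many summits are admitted. With a score of at least 5, the 53 summits fell to 23, their median score went from 4.16 to 8.12, the own summits went from 20 to 5, and the genes with a promoter summit from 5 to 3 (Dnmt1, Uhrf1 and Tet3, with 36.1% of all genes). With a score of at least 10 these values were 9, 36.7, 1 and 0, the pathway list went from 28 to 18 genes and the proliferation list from 11 to 6. A 10-kb window held 18 summits and a 100-kb window 92. Leaving out Uhrf1, chosen after seeing the data, left 26 summits. Of the 55 values under alternatives, the other 42 moved less, counts by under 1.5 times. Among them, Dnmt3b lost its promoter summit with a 500-bp window and with a window from 1 kb upstream to 100 bp downstream, which left 4 genes (41.4% and 35.2% of all genes). The latter window also took the pathway list from 28 to 21 (52.5%) and the proliferation list from 11 to 8 (53.3%).

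No paired analysis was possible because the summits carry no value per library, and for that reason leaving out a replicate could not be computed either. Depth is unknown, so the depth at which Tet1 or Tet2 sites would have been called is unknown too.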
